A study of Mus musculus with 38 samples.

Results

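The genes described here are 10 genes of T cells and natural killer (NK) cells, chosen by symbol: Cd3d, Cd3e, Cd3g, Cd4, Cd8a, Gzma, Nkg7, Ccl5, Klrd1 and Prf1. All 10 had an Ensembl identifier in both deposited tables, out of 47729 genes in the whole marrow table and 46679 in the table of sorted cells. RNA sequencing had been done on mouse bone marrow after zoledronic acid (ZA), a bisphosphonate that binds bone, after granulocyte colony-stimulating factor (G-CSF), a cytokine of neutrophil production, and after both.

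The whole marrow table held 9 libraries. Mice of 2 libraries had received ZA and G-CSF together (the combined group, replicates 1 and 3), those of 3 libraries G-CSF alone (1, 2 and 3), those of 2 libraries ZA alone (2 and 3), and those of 2 libraries were untreated (1 and 2). The label of every library is C57BL/6, female, 6 to 7 weeks old; ZA was given at 100 µg per kg, and recombinant human G-CSF at 50 µg per kg on 3 days, starting 2 days after ZA. The protocols also describe G-CSF dosing of nude mice, a strain without a thymus and therefore short of T cells. Sorted osteoclast precursors were lineage-negative cells that carried CD115, the receptor encoded by Csf1r, and the lineage mixture that was removed included antibodies to CD3. Run 1 of the sorted cells held 8 precursor libraries (combined 3, G-CSF 3, ZA 1, untreated 1) beside 3 marrow libraries. The labels number biological replicates without saying that they are separate animals, so the p-values speak only to variation among these libraries, which may be technical.

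T cells recognise peptides through a receptor of variable chains that cannot signal alone; the CD3 delta, epsilon and gamma chains, made from Cd3d, Cd3e and Cd3g, pair with one another and carry the signal with CD3 zeta. CD4 and CD8 are coreceptors that divide mature T cells into helper and killer lineages, and thymus is where these lineages are formed. NK cells kill without a rearranged receptor, and share with killer T cells the granule proteins granzyme A (Gzma) and perforin (Prf1), the granule membrane protein encoded by Nkg7, the chemokine CCL5 and the receptor subunit CD94 (Klrd1).

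The 3 CD3 genes lie side by side on chromosome 9 and did not move together, so their promoters are shown, with that of Gzma, the member with the largest called increase. In GRCm38, Cd3g (44969572 to 44980431, minus strand) and Cd3d (44981786 to 44987339, plus strand) are transcribed away from each other across a gap of 1354 bases. Cd3e (44998740 to 45009627, minus strand) lies 11400 bases beyond Cd3d, and the cluster spans 40056 bases in all. The other members lie apart: Cd4 (124864692 to 124888221, minus strand), Cd8a (71373427 to 71379173, plus strand) and Klrd1 (129591782 to 129598775, plus strand) on chromosome 6, Nkg7 (43437073 to 43438249, plus strand) on chromosome 7, Prf1 (61297833 to 61304680, plus strand) on chromosome 10, Ccl5 (83525778 to 83530518, minus strand) on chromosome 11 and Gzma (113093825 to 113100981, minus strand) on chromosome 13. Each sequence below runs 5′ to 3′ in the direction of its gene, covers 250 bases before and 50 after the RefSeq start in GRCm38.p6, and was found for 7 of the 10 genes. The windows are chr9:44980382-44980681 on the minus strand (Cd3g), chr9:44981536-44981835 on the plus strand (Cd3d), chr9:45009562-45009861 on the minus strand (Cd3e) and chr13:113100932-113101231 on the minus strand (Gzma). Capitals mark 4 short motifs searched on both strands: the RUNX motif TGTGGT, the E-box CACCTG, the ETS motif AGGAAG and the GATA motif AGATAA.
Cd3g: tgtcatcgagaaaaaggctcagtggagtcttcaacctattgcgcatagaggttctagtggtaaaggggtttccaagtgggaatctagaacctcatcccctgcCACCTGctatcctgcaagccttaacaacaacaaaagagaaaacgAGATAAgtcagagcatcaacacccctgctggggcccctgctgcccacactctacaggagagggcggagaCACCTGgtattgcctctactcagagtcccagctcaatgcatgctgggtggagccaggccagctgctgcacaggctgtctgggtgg
Cd3d: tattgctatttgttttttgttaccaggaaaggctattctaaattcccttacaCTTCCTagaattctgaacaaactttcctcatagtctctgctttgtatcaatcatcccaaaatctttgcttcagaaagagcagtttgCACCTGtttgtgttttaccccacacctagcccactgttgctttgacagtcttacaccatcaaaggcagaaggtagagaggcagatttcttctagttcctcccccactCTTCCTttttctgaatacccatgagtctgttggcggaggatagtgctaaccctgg
Cd3e: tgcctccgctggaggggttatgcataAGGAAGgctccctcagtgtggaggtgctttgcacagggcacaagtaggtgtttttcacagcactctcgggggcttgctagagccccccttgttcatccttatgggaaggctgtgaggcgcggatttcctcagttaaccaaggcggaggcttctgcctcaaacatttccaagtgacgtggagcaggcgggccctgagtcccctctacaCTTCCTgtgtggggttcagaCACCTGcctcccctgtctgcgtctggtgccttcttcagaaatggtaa
Gzma: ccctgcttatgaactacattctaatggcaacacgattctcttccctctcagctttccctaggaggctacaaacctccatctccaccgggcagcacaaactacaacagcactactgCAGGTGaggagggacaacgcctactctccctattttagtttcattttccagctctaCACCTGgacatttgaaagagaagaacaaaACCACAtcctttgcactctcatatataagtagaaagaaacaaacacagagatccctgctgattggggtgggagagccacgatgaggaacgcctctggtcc

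All 4 windows held the E-box CACCTG, which 20.2% of the 32851 promoters in the table hold. The ETS letters were in the Cd3d and Cd3e windows (35.4% of all promoters), the GATA letters in the Cd3g window (11.2%) and the RUNX letters in the Gzma window (16.8%). None of the motifs overlapped within these 4 windows. These matches describe letters in a window and were not measured as binding.

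Depth was 6.24 to 16.2 M estimated counts in whole marrow (M for mega, median 8.44 M), and 21.0 to 33.2 M in run 1 precursors. Levels are CPM unless given as TPM (CPM being counts per M, scaled between libraries by TMM). Where a gene had 0 counts, 3 counts remain possible, or 0.186 to 0.481 CPM in whole marrow libraries and 0.0904 to 0.143 CPM in run 1 precursor libraries. Such limits, and the intervals given with ratios, cover counting error only. The 3 run 1 marrow libraries are untreated 2, G-CSF 2 and ZA 2 of the marrow table quantified again, with correlations of 0.9993 to 0.9996 across genes and almost equal totals, and add no sample. In run 1, Csf1r stood at 405 to 475 CPM in precursors and 93.8 to 168 CPM in marrow, as the labels say. In run 2 it did not follow the labels: 5 of 15 libraries labelled precursors had 87.7 to 159 CPM, 1 had 239 CPM, and 2 of 3 labelled marrow had 423 and 442 CPM. Precursor results below therefore rest on run 1.

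**Figure D1:**
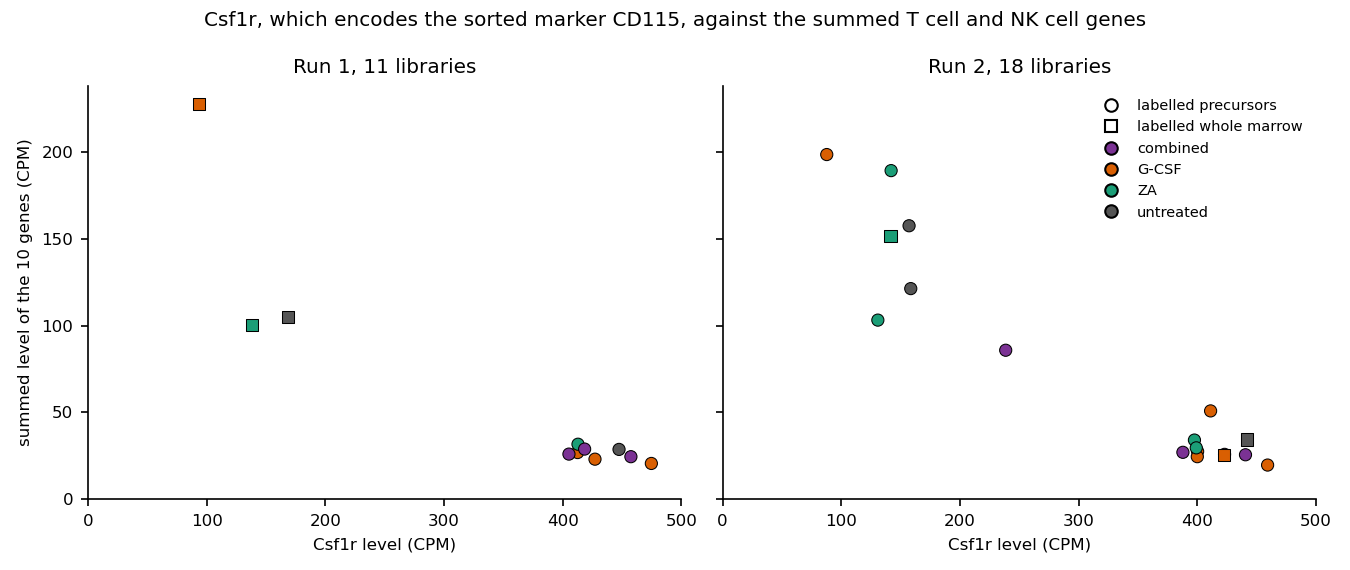
Level of Csf1r (x axis, CPM) against the summed level of the 10 T cell and NK cell genes (y axis, CPM) in each library of run 1 (left) and run 2 (right); circles are libraries labelled precursors, squares libraries labelled whole marrow, and colours give the treatment. In run 1 the precursors (summed level 20.5 to 31.6 CPM) and marrow (100.3 to 228 CPM) stand apart, while in run 2 circles and squares lie in both places.

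G-CSF marrow was set against untreated marrow. Genetic background and G-CSF cannot be told apart in this comparison, as described below. Genes of the group moved in both directions. Gzma, Cd3d and Nkg7 were higher, by 2.42, 2.01 and 1.14 on the log2 scale, and Cd3e, Cd8a and Cd3g were lower, by changes of -6.23, -4.25 and -2.34. Thus 6 of 10 members passed the test (edgeR, Benjamini-Hochberg adjusted p under 0.05), 3 in each direction, where 11.8% of all 14737 genes tested passed (4.93% higher and 6.91% lower). The median log2 change was -0.15 over the 10 members and 0.01 over all genes. Cd3e, Cd8a and Cd3g needed libraries not given G-CSF to pass the filter on low counts, which ties their direction to the filter. With no such filter, 3 members were called lower and 4 higher. In bulk RNA, fewer cells of a type and less RNA per cell cannot be told apart.

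Among the CD3 chains, Cd3d (delta chain) was at 40.9, 39.0 and 30.4 CPM in G-CSF marrow, against 8.60 and 9.65 CPM in untreated marrow. Every G-CSF library was thus above both untreated libraries, with means of 36.8 ± 5.65 and 9.13 ± 0.74 CPM (SD, n = 3 and n = 2) and a log2 fold change of 2.01 ± 0.22 (SE, adjusted p = 0.000600). Cd3e (epsilon chain) had 0, 0 and 2 counts in the G-CSF libraries, against 18 and 37 counts in the untreated ones. It was all but missing from G-CSF marrow: the ratio of the summed counts, each divided by the TMM-scaled depth of its group as in all such ratios here, was 0.010 (95% exact Poisson interval 0.0012 to 0.038), with adjusted p = 0.00322. Cd3g (gamma chain) was at 0.867, 2.38 and 0.473 CPM in G-CSF marrow, against 7.70 and 5.40 CPM in untreated marrow. No G-CSF library reached the untreated range, and the log2 fold change was -2.34 ± 0.59 (adjusted p = 0.0343).

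The neighbouring genes Cd3d and Cd3e therefore went opposite ways. Per length, on the TPM scale, Cd3d stood at 15.5, 16.6 and 14.3 TPM in G-CSF marrow with Cd3e at 0, 0 and 0.0836 TPM, against 1.34 and 3.40 TPM for Cd3d with 0.576 and 2.00 TPM for Cd3e in untreated marrow. The ratio of Cd3d to Cd3e could not be computed in G-CSF marrow, with Cd3e at 0 to 2 counts, and was 2.32 and 1.70 in untreated marrow. The ratio of Cd3d to Cd3g was 9.05, 3.19 and 13.6 in G-CSF marrow and 0.217 and 0.347 in untreated marrow. The span of Cd3e overlaps those of an antisense gene, Gm48719, and of Gm48720 on its own strand, and strand use in counting is not stated. Whether exons overlap, or whether reads were shared between these genes, was not tested. No other member overlaps an annotated gene.

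Of the coreceptors, Cd8a (CD8 alpha chain) had 0.674, 0.116 and 0.378 CPM in G-CSF marrow, against 7.70 and 6.70 CPM in untreated marrow. The groups were far apart, with a log2 fold change of -4.25 ± 0.62 (adjusted p = 0.00327), on 2 to 7 counts in each G-CSF library. Cd4 (CD4 coreceptor, also made by some macrophages and dendritic cells) was at 31.5, 16.9 and 5.20 CPM in G-CSF marrow, against 40.8 and 8.34 CPM in untreated marrow. Libraries of 1 group differed more than the groups did, and Cd4 did not pass (log2 fold change -0.44 ± 1.02, adjusted p = 0.812).

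Of the 3 granule genes, Gzma and Nkg7 rose in G-CSF marrow. Gzma (granzyme A, a serine protease of killer cells) had 37.6, 40.1 and 25.7 CPM in G-CSF marrow, against 7.25 and 5.72 CPM in untreated marrow. The lowest G-CSF library was over the highest untreated one by a wide margin, and the log2 fold change was 2.42 ± 0.31 (adjusted p = 0.00148). Nkg7, which encodes a membrane protein of cytotoxic granules, was at 65.9, 70.2 and 70.3 CPM in G-CSF marrow, against 35.1 and 27.5 CPM in untreated marrow, without overlap (1.14 ± 0.21, adjusted p = 0.00935). Prf1 (perforin, the pore-forming protein) had 5.20, 5.97 and 5.01 CPM in G-CSF marrow, against 0.679 and 2.29 CPM in untreated marrow. The groups were apart but Prf1 missed the threshold in edgeR (log2 fold change 1.80 ± 0.55, adjusted p = 0.0619). It passed with DESeq2 (adjusted p = 0.0444) and with no filter on low counts (adjusted p = 0.0173).

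The chemokine gene Ccl5 was at 5.59, 5.10 and 6.71 CPM in G-CSF marrow, against 10.4 and 8.18 CPM in untreated marrow (-0.68 ± 0.32, adjusted p = 0.190). Its G-CSF libraries were all lower, without passing. Klrd1 (CD94) overlapped, with 4.53, 4.29 and 6.62 CPM in G-CSF marrow, against 4.75 and 4.58 CPM in untreated marrow (0.14 ± 0.33, adjusted p = 0.816). In all, 4 members had every G-CSF library higher and 4 every one lower, which was also so for 23.7% and 21.5% of all genes tested.

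**Figure D2:**
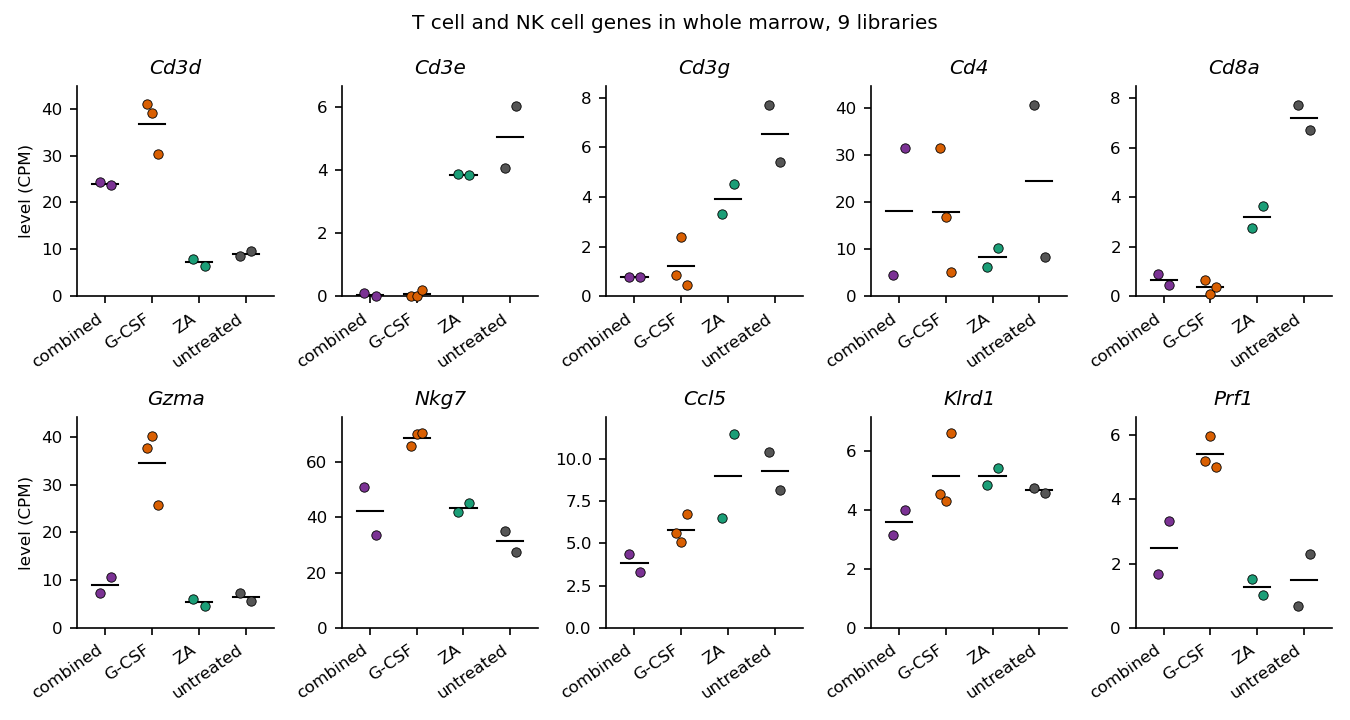
Level (y axis, CPM, from 0, a scale per gene) of the 10 genes in the 9 whole marrow libraries, by group; points are libraries and bars are group means. Cd3e, Cd3g and Cd8a are low in both groups given G-CSF, Cd3d is high in both, and Gzma, Nkg7 and Prf1 are highest in G-CSF marrow.

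A list of 7 genes had been chosen in earlier results of these data for being on or off by G-CSF group. That it divides the same libraries without overlap was therefore set in advance. Ifi202b among them is known to differ between mouse strains. Eno1b was at 174 to 234 CPM, H2-Bl at 47.3 to 89.7 CPM and Ifi202b at 8.61 to 27.2 CPM in the 5 libraries of both groups given G-CSF, against 0 to 2.61, 0 to 0.453 and 0 CPM in the 4 ZA and untreated libraries. Conversely, Gvin1 and Eps8l1 were at 0 CPM, Vill at 0 to 0.296 CPM and H2-Eb1 at 4.04 to 7.13 CPM in the groups given G-CSF, against 33.9 to 98.0, 12.6 to 28.2, 33.1 to 97.9 and 101.2 to 157.3 CPM in the others. Run 1 precursors showed no such division: Gvin1 was at 117 to 176 CPM with G-CSF and 153 to 168 CPM without, and Eno1b at 0 to 1.95 and 0.378 to 0.511 CPM. In whole marrow, genetic background and G-CSF cannot be told apart, and this touches every comparison of a group given G-CSF with one that was not. It also touches the run 1 comparison of precursors with marrow, which holds a G-CSF marrow library.

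Calls of Cd3d, Cd3e, Cd8a and Gzma held when any 1 library was left out. Without untreated replicate 2 the adjusted p of Nkg7 was 0.0728, and that of Cd3g was 0.0538 to 0.116 in 6 of the 9 fits that left out 1 library (combined 1, combined 3, untreated 1, untreated 2, G-CSF 1 or G-CSF 3).

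Combined marrow was next set against untreated marrow. Cd3d rose and Cd3e, Cd3g and Cd8a fell again, while Gzma and Nkg7 did not pass in edgeR. These 4 of 10 members were called (edgeR, 1 higher and 3 lower), where 7.72% of all genes were called (3.17% higher, 4.55% lower), and the median log2 change was -0.41 over the members and -0.01 over all genes. The 3 lower members again needed libraries not given G-CSF to pass the filter on low counts. The combined and G-CSF groups were compared with the same untreated libraries, so their shared direction is no second sign.

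Cd3d was at 24.3 and 23.7 CPM in combined marrow, against 8.60 and 9.65 CPM in untreated marrow (log2 fold change 1.39 ± 0.23, adjusted p = 0.00790). Cd3e had 1 and 0 counts in the combined libraries, against 18 and 37 counts in untreated ones, a depth-scaled ratio of 0.010 (95% exact Poisson interval 0.000252 to 0.0589; adjusted p = 0.0123). Cd3g at 0.789 and 0.799 CPM and Cd8a at 0.888 and 0.457 CPM in combined marrow were each below every untreated library. Their log2 fold changes were -3.02 ± 0.72 and -3.38 ± 0.69 (adjusted p = 0.0360 and 0.0219).

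The killer cell genes were nearer to untreated marrow. Gzma had 7.20 and 10.6 CPM in combined marrow, against 7.25 and 5.72 CPM in untreated marrow (0.46 ± 0.32, adjusted p = 0.409). Nkg7 had 50.8 and 33.4 CPM in combined marrow (0.43 ± 0.22, adjusted p = 0.263) and Prf1 1.68 and 3.31 CPM (0.69 ± 0.59, adjusted p = 0.513). All 3 overlapped with untreated marrow on the CPM scale. With limma on log2(TPM + 1), where the median of all genes lay 0.84 higher, Gzma (1.34, adjusted p = 0.0328) and Nkg7 (1.56, adjusted p = 0.0247) were called higher. Ccl5 was lower in both combined libraries, at 4.34 and 3.31 CPM, without passing (-1.27 ± 0.36, adjusted p = 0.0656). Klrd1, at 3.16 and 3.99 CPM (-0.38 ± 0.36, adjusted p = 0.558), and Cd4, at 4.54 and 31.6 CPM (-0.43 ± 1.13, adjusted p = 0.853), did not pass. Every combined library was higher for 1 member and lower for 5, which was so for 27.6% and 26.6% of all genes.

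These calls rest on few libraries. Without combined replicate 1 the adjusted p was 0.0573 for Cd3d, 0.0727 for Cd3e, 0.204 for Cd3g and 0.103 for Cd8a, and without combined replicate 3 it was 0.0830 for Cd3e, 0.161 for Cd3g and 0.134 for Cd8a. Without untreated replicate 1 or 2, Cd3g was at 0.110 and 0.0731 and Cd8a at 0.0664 and 0.0573.

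**Figure D3:**
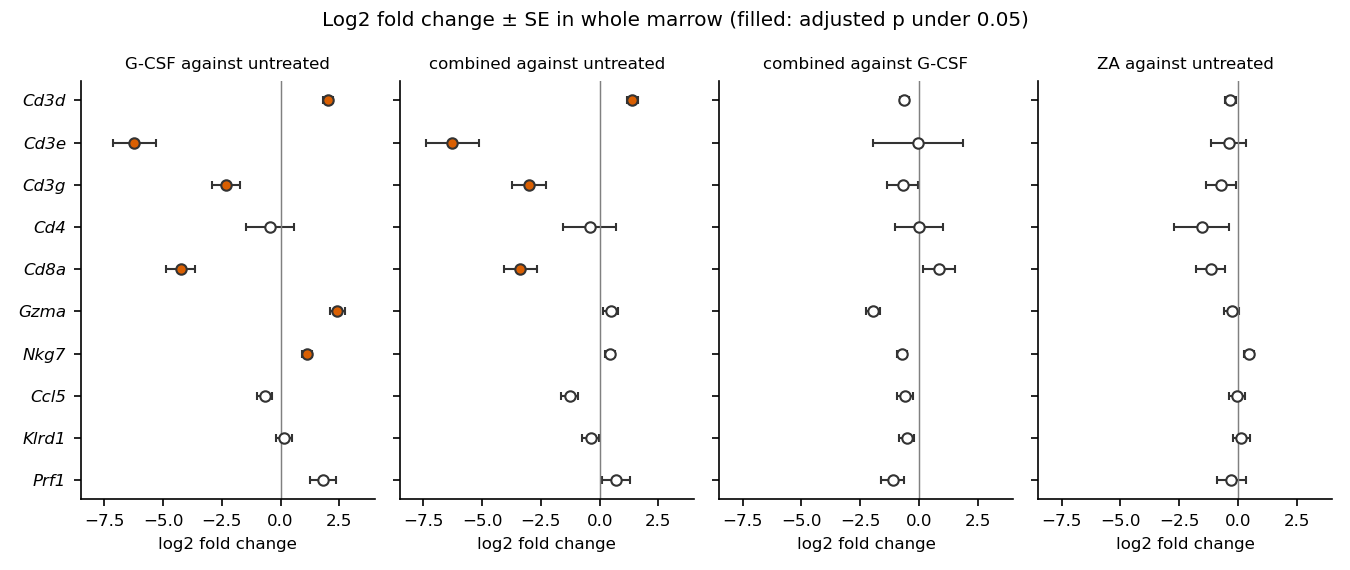
Log2 fold change (x axis) with its SE for each of the 10 genes (y axis) in 4 whole marrow comparisons, from edgeR; filled points passed an adjusted p of 0.05. Filled points stand on both sides of 0 in the first panel (3 and 3) and the second (1 and 3), and there are none in the other panels.

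Combined marrow against G-CSF marrow asks what ZA changed in mice given G-CSF, and both of its groups lie on the same side of the division by Eno1b and Gvin1. Gzma, Nkg7 and Prf1 had lower values in both combined libraries than in every G-CSF library, but no member passed. In edgeR 0 of 10 members were called, where 1 of 14737 genes (0.00679%) was. An unadjusted p under 0.05 was found for 3 members and for 1530 of all genes. DESeq2 called 1 member and 207 of all genes, and limma on log2(TPM + 1) called 0 members and 26 of all genes. Gzma had 7.20 and 10.6 CPM in combined marrow, against 37.6, 40.1 and 25.7 CPM in G-CSF marrow, which is the widest gap of the 10 genes in this comparison relative to its error (log2 fold change -1.96 ± 0.29, adjusted p = 0.0956). In DESeq2 the change of Gzma was -1.94 with adjusted p = 3.13e-06; over all 16 alternative settings the adjusted p ran from 5.44e-08 to 0.519.

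Nkg7 and Prf1 also had lower values in both combined libraries, without passing. Nkg7 was at 50.8 and 33.4 CPM in combined marrow, against 65.9, 70.2 and 70.3 CPM in G-CSF marrow (-0.71 ± 0.20, adjusted p = 0.313). Prf1 was at 1.68 and 3.31 CPM in combined marrow, against 5.20, 5.97 and 5.01 CPM in G-CSF marrow (-1.12 ± 0.50, adjusted p = 0.483). Cd3d, at 24.3 and 23.7 CPM in combined marrow and 40.9, 39.0 and 30.4 CPM in G-CSF marrow, had a log2 fold change of -0.62 ± 0.20 (adjusted p = 0.356). With Ccl5 and Klrd1 these made 6 members with both combined libraries below all G-CSF libraries, which was so for 16.8% of all genes. Cd3e, Cd3g, Cd8a and Cd4 overlapped. Neutrophil markers were lower beside them: their summed level was 21776 to 22194 CPM in combined and 26939 to 37655 CPM in G-CSF marrow. Of these markers, 7 of 12 had an unadjusted p under 0.05 (0 called, median log2 change -0.42), where 1530 of all 14737 genes did. The part of the neutrophil markers in the result was not tested.

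An interaction term measured how far the log2 change under both agents lay from that of ZA plus that of G-CSF. It was -1.68 ± 0.43 for Gzma and -1.18 ± 0.30 for Nkg7 (adjusted p = 0.239 for both). In edgeR 0 of 10 members and 1 of all genes (0.00679%) were called. An unadjusted p under 0.05 was found for 2 members and for 1738 of all 14737 genes. DESeq2 called 1 member, Nkg7 (adjusted p = 0.0464), and 257 of all genes. Of the neutrophil markers 9 of 12 had an unadjusted p under 0.05 in the interaction (0 called, median -0.77).

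Combined marrow against ZA marrow compares mice given ZA with and without G-CSF, across the division by Eno1b and Gvin1. Cd3d was higher and Cd3e lower, and these 2 of 10 members passed (edgeR), where 4.33% of all genes did (1.87% higher, 2.46% lower). Cd3e needed libraries not given G-CSF to pass the filter on low counts. Cd3d was at 24.3 and 23.7 CPM in combined marrow, against 8.01 and 6.57 CPM in ZA marrow (1.72 ± 0.23, adjusted p = 0.00303). Cd3e had 1 and 0 counts in combined marrow, against 28 and 34 counts in ZA marrow, a depth-scaled ratio of 0.014 (95% exact Poisson interval 0.000342 to 0.0793; adjusted p = 0.0199). Leaving out either combined library or either ZA library gave an adjusted p of 0.0553 to 0.148 for Cd3e. Cd3g and Cd8a were also lower in every combined library, by -2.29 ± 0.71 and -2.21 ± 0.68, without passing (adjusted p = 0.124 and 0.120). Ccl5 was at 4.34 and 3.31 CPM, against 6.49 and 11.4 CPM in ZA marrow (-1.23 ± 0.36, adjusted p = 0.0998), and Gzma at 7.20 and 10.6 CPM, against 6.08 and 4.64 CPM in ZA marrow (0.73 ± 0.32, adjusted p = 0.272). Both combined libraries were higher for 3 members and lower for 5, against 24.0% and 26.6% of all genes.

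ZA marrow against untreated marrow, both on the other side of the division by Eno1b and Gvin1, showed no call among the members. In edgeR 0 of 10 members passed, where 5 of 14737 genes (0.0339%) did (0.00679% higher, 0.0271% lower). No member had an unadjusted p under 0.05, where 1395 of all genes did. DESeq2 and limma called 0 members. The 3 CD3 genes and Cd8a were lower in both ZA libraries than in both untreated ones, which was so for 17.7% of all genes, and 2 members were higher in both (19.6% of all genes). Cd8a was at 2.76 and 3.62 CPM in ZA marrow, against 7.70 and 6.70 CPM in untreated marrow (-1.17 ± 0.62, adjusted p = 0.564). Nkg7 was at 41.7 and 45.0 CPM in ZA marrow, against 35.1 and 27.5 CPM in untreated marrow (0.47 ± 0.22, adjusted p = 0.542). Cd4 had 6.35 and 10.2 CPM in ZA marrow, against 40.8 and 8.34 CPM in untreated marrow (-1.54 ± 1.18, adjusted p = 0.689), a gap made by 1 untreated library.

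Other genes of the same cells were taken from 2 lists, 30 of T cells and 28 of NK and cytotoxic cells. In G-CSF against untreated marrow, 7 of 26 tested T cell genes passed, 1 higher and 6 lower, with a median log2 change of -0.38, where 11.8% of all genes passed (4.93% higher, 6.91% lower). The gene of the T cell receptor alpha chain, Trac, had 2 counts in all 3 G-CSF libraries, against 84 counts in both untreated ones, a depth-scaled ratio of 0.0066 (95% exact Poisson interval 0.000782 to 0.0244). Trbc2, a beta chain constant gene, was at 2.03 ± 0.21 CPM in G-CSF marrow, against 11.6 ± 0.045 CPM in untreated marrow, and Cd8b1, the CD8 beta chain, at 0.141 ± 0.079 against 5.56 ± 0.46 CPM. Trac and Cd8b1 also needed libraries not given G-CSF to pass the filter on low counts. Tcf7 (a T cell transcription factor), Cd6 (a T cell surface receptor) and Ccr7 (a homing receptor) were the other genes that fell, by -1.60, -1.90 and -0.88 on the log2 scale. Trdc, the delta chain constant gene of the other class of T cell receptor, rose to 11.6 ± 0.74 CPM in G-CSF marrow, against 2.13 ± 0.45 CPM in untreated marrow (2.42 ± 0.38, adjusted p = 0.00464).

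Not every T cell gene was lower. Trbc1, the other beta chain constant gene, was at 7.77 ± 1.54 CPM in G-CSF marrow and 8.21 ± 1.20 CPM in untreated marrow (-0.07, adjusted p = 0.893), the kinase gene Lck at 16.4 ± 3.49 and 21.2 ± 2.14 CPM (-0.37, adjusted p = 0.420), and Cd247, which encodes CD3 zeta, at 2.80 ± 0.65 and 5.20 ± 0.65 CPM (-0.88, adjusted p = 0.142). Trbc1 and Trbc2 are near-identical copies, so how their reads were split is uncertain.

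In the NK list 5 of 22 tested genes passed in the same comparison, 2 higher and 3 lower, with a median of -0.16, beside the same 11.8% of all genes. Ncr1 (NKp46, a receptor of NK cells) rose to 10.3 ± 2.12 CPM in G-CSF marrow, against 1.74 ± 0.54 CPM in untreated marrow (2.53 ± 0.44, adjusted p = 0.00691), and Eomes (a transcription factor of NK and killer T cells) to 7.71 ± 2.26 against 1.79 ± 0.93 CPM (2.06 ± 0.54, adjusted p = 0.0390). Sh2d1b1, an adaptor gene of NK cells, fell to 0.575 ± 0.10 CPM, against 6.57 ± 0.65 CPM in untreated marrow (-3.49 ± 0.43, adjusted p = 0.00136). S1pr5 (an exit receptor) and Klrc1 (NKG2A, the partner of CD94) fell by -2.10 and -1.55. Sh2d1b1 and S1pr5 needed libraries not given G-CSF to pass the filter on low counts. Klrb1c (NK1.1) was at 3.63 ± 1.49 CPM in G-CSF marrow and 4.05 ± 0.28 CPM in untreated marrow and did not pass (-0.16, adjusted p = 0.851).

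**Figure D4:**
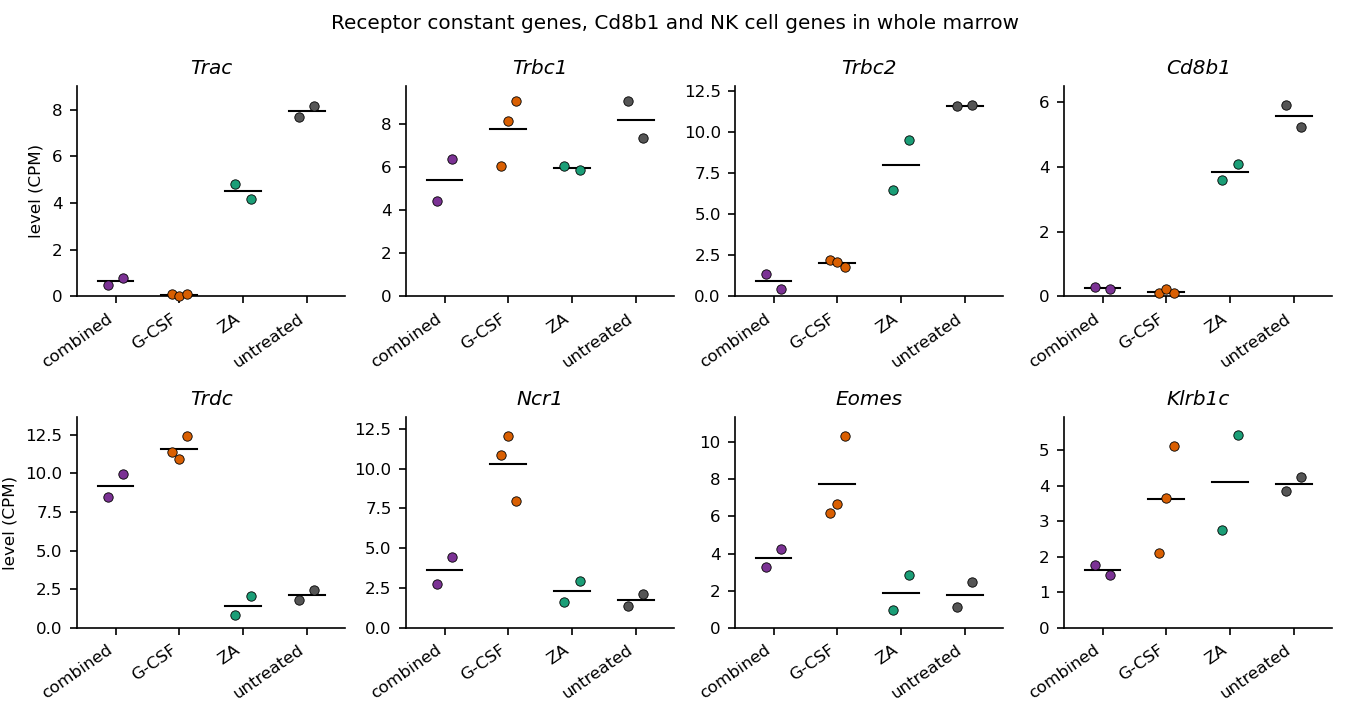
Level (y axis, CPM, from 0, a scale per gene) of 4 T cell receptor constant genes, Cd8b1 and 3 NK cell genes in the 9 whole marrow libraries; points are libraries and bars are group means. Trac, Trbc2 and Cd8b1 are low in both groups given G-CSF, Trdc is high in both, and Ncr1 and Eomes are highest in G-CSF marrow.

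In combined against untreated marrow, where 7.72% of all genes passed, 7 of 26 T cell genes did: Trdc higher (2.09) and Trbc2, Trac, Cd8b1, Tcf7, Thy1 and Skap1 lower (-3.61, -3.60, -4.33, -1.99, -1.80 and -1.78). Thy1 is a surface marker of mouse T cells and Skap1 an adaptor of T cell receptor signalling. In the NK list Klrk1 (the receptor NKG2D), Tyrobp (a signalling adaptor shared with myeloid cells) and Sh2d1b1 were lower (-1.78, -1.20 and -3.45), which made 3 of 22. Ncr1 did not pass, at 3.61 ± 1.19 CPM in combined marrow and 1.74 ± 0.54 CPM in untreated marrow (1.02, adjusted p = 0.213). Among the genes followed throughout, Trbc1 (-0.60), Lck (-0.59), Cd247 (-1.26) and Klrb1c (-1.31) did not pass against untreated marrow. In combined against ZA marrow, where 4.33% of all genes passed, Trdc and Il7r (the interleukin-7 receptor, also of early B cells) were higher (2.64 and 1.12), Cd8b1, Trbc2, Trac and Thy1 lower (-3.80, -3.08, -2.79 and -1.91), and Sh2d1b1 and Fcer1g (an adaptor shared with myeloid cells) lower (-2.92 and -0.69).

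In combined against G-CSF marrow, edgeR called 0 genes of both lists. There, 6 of 26 T cell and 9 of 22 NK list genes had an unadjusted p under 0.05, where 1530 of all 14737 genes did. DESeq2 called 2 and 1 list genes and 207 of all genes. With limma these numbers were 0 and 0, and 26 of all genes. Ncr1 was at 3.61 ± 1.19 CPM in combined marrow and 10.3 ± 2.12 CPM in G-CSF marrow (-1.52, adjusted p = 0.274). Trac had 12 counts in the 2 combined libraries and 2 counts in the 3 G-CSF libraries (adjusted p = 0.257). The median log2 change was -0.60 over the 10 members, -0.93 over the 22 NK genes, -0.21 over the 26 T cell genes and -0.01 over all genes. In ZA against untreated marrow edgeR, DESeq2 and limma called 0 genes of both lists. There, 3 of 26 T cell and 2 of 22 NK genes had an unadjusted p under 0.05, near the share over all genes (1395 of 14737).

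Markers of other cell types were counted in G-CSF against untreated marrow (edgeR), where 6.91% of all genes were called lower and 4.93% higher. Called lower were 4 of 10 plasmacytoid dendritic cell genes, 2 of 8 conventional dendritic, 5 of 10 monocyte, 5 of 10 erythroid, 2 of 14 B lineage and 1 of 9 early lymphoid genes, and 3 of 12 neutrophil genes were called higher. The B lineage and early lymphoid counts are too small to set against the share over all genes. In combined against untreated marrow (4.55% of all genes lower), 3 of 12 neutrophil, 7 of 10 erythroid, 5 of 10 monocyte and 3 of 10 plasmacytoid genes were called lower and none of these lists had a gene called higher. Summed levels of the monocyte list were 543 to 593 CPM in combined, 569 to 693 CPM in G-CSF, 1146 to 1281 CPM in ZA and 1377 to 1600 CPM in untreated marrow. Those of the plasmacytoid list were 321 to 335, 251 to 317, 315 to 382 and 477 to 494 CPM in the same groups, and those of the erythroid list 105104 to 119382, 152942 to 203655, 255669 to 303448 and 303729 to 417096 CPM. No gene of these 3 lists was at 0 throughout a group, and their part in the results was not tested.

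The pattern of each member over the 9 libraries was set beside all protein-coding genes that averaged at least 5 CPM, by Pearson's r of log2 levels (CPM + 0.5). The nearest genes were Ppfia4 and Gvin1 for Cd3e (0.995 for both), Arg2 and Ly6c1 for Cd3d (0.98 for both), Pink1 and Unkl for Cd8a (0.99 and 0.98), and Slc31a1 and Rexo2 for Gzma (0.97 and 0.96). For Nkg7 they were Prtn3 and Metrn (both 0.97), for Prf1 Hddc3 and Il18bp (0.98 and 0.97), and for Cd3g Fgfr1op2 and Cd300lb (0.97 and 0.96). Klrd1 had the lowest likeness of the 10, with Tmem106a and Rnf167 (0.89 and 0.86); for Ccl5 the genes were Gng2 and Prss34 (both 0.94) and for Cd4 Zranb2 and Mrpl27 (0.96 and 0.91). The libraries share treatment and the division by Gvin1, so these values describe the 9 libraries only.

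Run 1 precursors held little of most members. Cd3e and Cd3g had 2 counts each over all 8 libraries, 6 of the 8 at 0. Cd8a (0 to 0.291 CPM) and Prf1 (0 to 0.227 CPM) had 3 or fewer counts in 4 and 6 of the 8 libraries. Ccl5 (0 to 0.453 CPM) and Gzma (0 to 0.744 CPM) had so few in 3 and 4 libraries, and reached 14 and 23 counts. Cd3d was at 0.450 to 0.886 CPM (median 0.545) and Cd4 at 0.0423 to 1.47 CPM (median 0.304). Nkg7 and Klrd1 were the exceptions, at 17.3 to 27.7 CPM (median 21.8) and 1.27 to 3.07 CPM (median 2.26). Per length, Nkg7 stood at 18.2 to 38.9 TPM and no other member passed 4.32 TPM.

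Within run 1 precursors, libraries with G-CSF (alone or combined) were set against those without, and combined against G-CSF alone. Of the 10 members 6 were tested (Cd3d, Cd4, Gzma, Nkg7, Ccl5 and Klrd1) and the other 4 were under the filter on low counts. In both comparisons edgeR called 0 of 6 members and 0 of 18779 genes (0.0%), 0 members had an unadjusted p under 0.05, and DESeq2 and limma called 0 members. Over all genes, 682 had such an unadjusted p with against without G-CSF, and 1306 in combined against G-CSF. Nkg7 was at 20.9, 21.5 and 24.6 CPM in combined, 17.3, 20.9 and 22.2 CPM in G-CSF, 27.7 CPM in ZA and 23.1 CPM in untreated precursors. Its log2 fold change with against without G-CSF was -0.26 ± 0.13 (adjusted p = 1.00), and combined against G-CSF 0.15 ± 0.14 (adjusted p = 0.850). All 6 members overlapped in both comparisons; every library was higher or lower for 2.97% and 3.09% of all genes with against without G-CSF, and for 6.13% and 6.69% in combined against G-CSF. ZA and untreated precursors had 1 library each. With 17 precursor libraries of both runs, edgeR called 0 of 10 members with against without G-CSF. An unadjusted p under 0.05 was found for 9 of the 10, and for 4497 of all 18954 genes. The median log2 change was -3.31 over these 10 members, against -0.25 over the 6 tested in run 1. Among the 17, untreated replicate 7 and ZA replicates 5 and 7 of run 2 had Csf1r at 157, 131 and 142 CPM, as in marrow. All of these lie on the side without G-CSF, so this fit sets marrow-like libraries against precursors.

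Precursors were compared with marrow in run 1 over the treatments that had both kinds (G-CSF, ZA and untreated), with treatment in the model. All 10 members were lower in precursors (edgeR), where 43.8% of 17208 genes were called, 20.4% higher and 23.3% lower. Cd3e, Cd3g, Cd8a, Gzma, Ccl5 and Prf1 needed the marrow libraries to pass the filter on low counts, which ties their direction to the filter. With no such filter, 9 members were called, all lower. For 8 members every precursor library was below every marrow library, against 23.0% of all genes (23.8% the other way). The G-CSF marrow library had Gvin1 at 0 CPM and Eno1b at 248 CPM, against 150 to 176 and 0 to 0.803 CPM in G-CSF precursors. Genetic background and kind of sample thus cannot be told apart within that treatment. The sort had depleted CD3-positive cells, so lower levels of the CD3 genes were set in advance by the design. The part of the sort in the result of the other members was not tested. Gzma was at 0.0423, 0.0955 and 0.165 CPM in G-CSF, 0.170 CPM in ZA and 0.0756 CPM in untreated precursors, against 51.5, 7.34 and 7.32 CPM in marrow of these groups (-7.64 ± 0.61, adjusted p = 8.74e-05). Cd3g, Cd3e, Ccl5, Cd3d and Prf1 had changes of -7.65, -7.34, -6.25, -5.27 and -5.08, and Cd4 and Cd8a of -4.39 and -4.23.

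The smallest differences were those of Nkg7 and Klrd1. Nkg7 had 17.3, 20.9 and 22.2 CPM in G-CSF, 27.7 CPM in ZA and 23.1 CPM in untreated precursors, against 85.8, 48.8 and 33.7 CPM in marrow of these groups (-1.36 ± 0.28, adjusted p = 0.00635). Klrd1 had 2.28, 1.27 and 2.24 CPM in G-CSF, 2.15 CPM in ZA and 2.99 CPM in untreated precursors, against 5.08, 5.63 and 5.44 CPM in marrow (-1.26 ± 0.32, adjusted p = 0.0164). On the TPM scale the direction was not kept in every treatment. Nkg7 was at 38.9 TPM in ZA and 33.2 TPM in untreated precursors, against 32.7 and 24.6 TPM in marrow. In G-CSF it was at 26.2, 24.9 and 32.0 TPM in precursors and 76.1 TPM in marrow. Klrd1 was higher only in untreated precursors (4.21 against 3.92 TPM in marrow). NK cell genes that define the lineage were all but missing from the same precursors: Ncr1 was at 0 to 0.227 CPM and Klrb1c at 0 to 0.356 CPM.

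In marrow of G-CSF replicate 2, Cd3e had 0 counts and Cd8a 2 counts, so both overlapped with precursors. Leaving out marrow untreated 2 gave an adjusted p of 0.0615 for Cd3e, leaving out marrow G-CSF 2 gave 0.0983 for Cd4 and 0.0855 for Klrd1, and leaving out marrow ZA 2 or precursor ZA 3 gave 0.0603 and 0.0578 for Klrd1. Cd8a lost its call in 6 of 8 such fits, those without marrow untreated 2, marrow ZA 2, or precursors untreated 2, G-CSF 1, G-CSF 2 or ZA 3 (adjusted p = 0.0693 to 0.155). With limma on log2(TPM + 1), Nkg7 (-0.43, adjusted p = 0.346) and Klrd1 (-0.30, adjusted p = 0.318) did not pass.

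**Figure D5:**
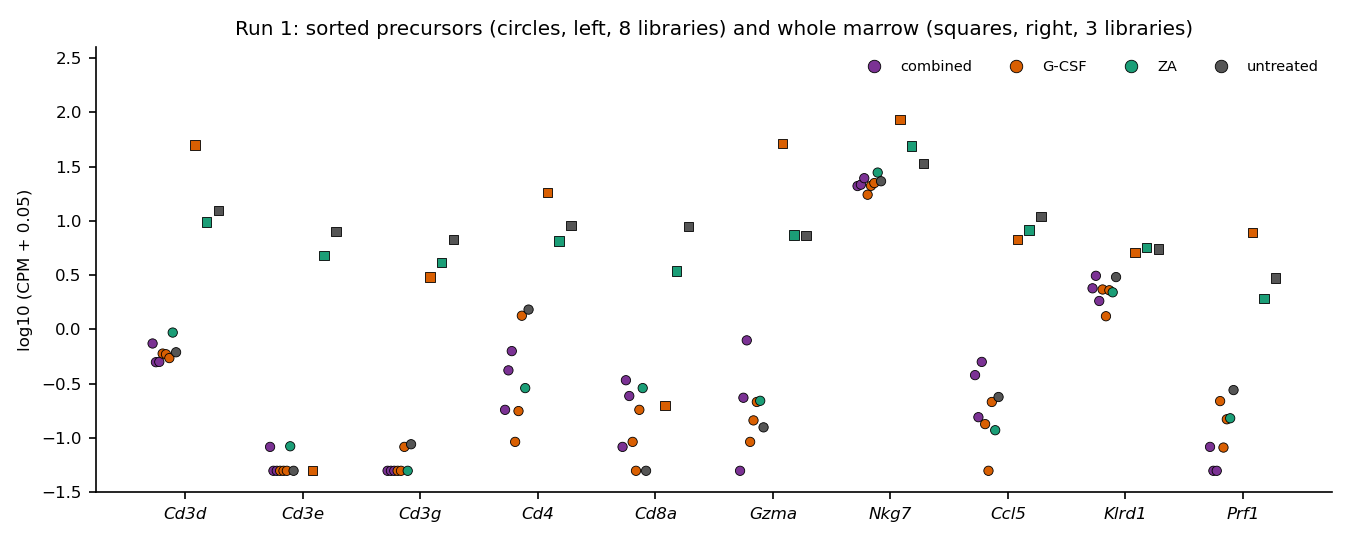
Level on a log10 scale (y axis, log10 of CPM + 0.05) of the 10 genes in run 1, with precursors as circles on the left and whole marrow as squares on the right of each gene; colours give the treatment. Nkg7 and Klrd1 stay at 17.3 to 27.7 and 1.27 to 3.07 CPM in precursors, and the other genes are under 1.5 CPM.

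In the T cell list 22 of 28 tested genes were called between precursors and marrow, 20 lower and 2 higher, and in the NK list 20 of 26, 17 lower and 3 higher, where 43.8% of all genes were called. The depletion of CD3-positive cells by the sort bears on the T cell list too. Genes of both lists that were all but missing from precursors also needed marrow libraries to pass the filter on low counts. The largest falls in the T cell list among genes averaging at least 1 CPM were those of Trbc1 and Trbc2, with 0 and 2 counts over all 8 precursor libraries, then Trdc, Cd2, Trac, Tcf7, Il2ra and Lat (-7.10 to -5.31). In the NK list they were those of Ncr1, Gzmb, Il2rb, Eomes, Klrc1, Klrb1c, Ctsw and Tbx21 (-6.71 to -3.98). The 5 genes higher in precursors were S1pr5, Il12rb2 (an interleukin-12 receptor chain), Cd28 (a costimulatory receptor), Lcp2 (the adaptor SLP-76, shared with myeloid cells) and Fcer1g, by 2.23, 1.81, 1.27, 0.87 and 0.34 on the log2 scale.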

How the data were processed

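RNA was measured by sequencing in whole marrow and sorted precursors. The authors deposited estimated counts and TPM per gene, made with Salmon (no version), with DESeq2 1.16.1 and the build mm10 also named, per the submitters' processing notes; the annotation release is not given in the sources used here. The deposited estimated counts were rounded to whole numbers. Identifiers were matched to GENCODE vM21 on GRCm38, and 99.1% matched in each table.

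After filterByExpr (a count minimum of 10 and a total minimum of 15) and TMM scaling, genes were tested with edgeR 4.0.16 (quasi-likelihood, robust; R 4.3.3), with Benjamini-Hochberg adjustment over all genes tested and a threshold of 0.05. Whole marrow was fitted as 4 groups in 1 model, run 1 precursors likewise, and precursors against marrow with treatment as a term. SE was taken as |log2 fold change| divided by √F. Ratios with 3 or fewer counts are of summed counts over summed TMM-scaled library sizes and carry 95% exact Poisson intervals. The edgeR test was also run on simulated counts with known changes and the same spread for every gene. That run cannot speak to genes that vary more between libraries, or to genetic background.

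The members and lists were chosen with earlier results of these data known. All 10 members are named. Of the 2 lists, genes called that averaged at least 1 CPM are named (up to 8 in each direction for each comparison), with Trac, Trbc1, Trbc2, Cd247, Lck, Ncr1 and Klrb1c always, and the 2 nearest patterns of each member.

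Alternatives were RLE scaling, DESeq2 1.42.0, no filter, limma 3.58.1 on log2(TPM + 1) and log2(TPM + 0.1) of the deposited TPM with a mean of at least 0.5 TPM, a replicate block, the compared groups alone, each library left out, and, for precursors, other sets of libraries. Whether replicate numbers pair the samples is not known.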

Additional observations from a re-analysis of the deposited data

Results flagged for a closer look

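In run 1 precursors Cd3e reached at most 0.0341 CPM and Gzma at most 0.744 CPM. Of the 15 run 2 libraries labelled precursors, 11 had Cd3e at 0 to 0.0999 CPM and 8 had Gzma at 0 to 0.599 CPM; the others held more. Cd3e was at 4.19 and 7.94 CPM in ZA replicates 5 and 7, and at 5.25 and 4.82 CPM in untreated replicates 2 and 7. Gzma was at 7.49 CPM in combined replicate 3, 9.17 and 50.8 CPM in G-CSF replicates 1 and 2, 8.23 and 12.5 CPM in ZA replicates 5 and 7, and 8.17 and 5.73 CPM in untreated replicates 2 and 7. Csf1r was at 131 and 142 CPM in those ZA libraries, 159 and 157 CPM in the untreated ones, 87.7 CPM in G-CSF replicate 2, 239 CPM in combined replicate 3 and 411 CPM in G-CSF replicate 1. Of these 7 libraries, 6 thus had 87.7 to 239 CPM of Csf1r. The run 2 libraries labelled precursors with little of both genes had 388 to 459 CPM, and run 1 precursors 405 to 475 CPM. Levels of the 2 runs were scaled separately.

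Eno1b was at 231 CPM in G-CSF replicate 2, 97.3 CPM in combined replicate 3 and 36.6 CPM in G-CSF replicate 1 of run 2, against at most 1.95 CPM in run 1 precursors. What these libraries hold was not tested.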

How the results depend on the processing

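Leaving out 1 library at a time, edgeR called 4 to 6 members in G-CSF against untreated marrow, 0 to 5 in combined against untreated, 1 to 2 in combined against ZA, 0 to 1 in combined against G-CSF, 0 to 0 for ZA, the interaction and both precursor comparisons, and 8 to 10 in precursors against marrow. Genes called were 836 to 1706, 296 to 1353, 251 to 713, 0 to 18, 0 to 23 (ZA), 0 to 10 (interaction), 0 to 1 and 0 to 0 (precursors with against without G-CSF, and combined against G-CSF) and 5686 to 7633. The change of Cd4 ran from -1.19 to 1.11 in G-CSF and from -2.42 to 1.12 (0.38 in another such fit) in combined against untreated marrow, and that of Klrd1 in G-CSF from -0.083 to 0.26. With DESeq2, 1 member was called in combined against G-CSF and 1 in the interaction; genes called were 129 (ZA), 1758 (combined against untreated), 207 (combined against G-CSF), 1024 (combined against ZA), 257 (interaction), and 23 and 91 (precursors with against without G-CSF, and combined against G-CSF). With no filter, members called were 1 (ZA), 1 (combined against G-CSF), 5 (combined against ZA) and 3 (interaction), and genes 3206 (G-CSF), 634, 2540, 557, 1587 and 746 in the order ZA, combined against untreated, against G-CSF, against ZA and interaction, with 2 and 1 in precursors. With limma on log2(TPM + 1) and log2(TPM + 0.1), members called were 3 and 3 (G-CSF), 3 and 3, all higher, in combined against untreated (Gzma at adjusted p = 0.0328 and 0.0276 and Nkg7 at 0.0247 and 0.0190 gained calls), 1 and 1 (combined against ZA) and 5 and 5 (precursors against marrow), and genes 25 and 19 (ZA), 4024 and 4245, 26 and 17, 299 and 309 (combined against untreated, G-CSF and ZA), 23 and 10 (interaction), 128 and 10, and 12 and 22 (precursors). On this scale the median of all genes moved by 0.58 and 0.81 in G-CSF and 0.84 and 1.11 in combined against untreated marrow, and signs turned for Cd4 (0.40 and 0.46) and Ccl5 (0.15 and 0.16) in G-CSF, Cd4 (0.55 and 0.58) and Klrd1 (0.61 and 0.79) in combined against untreated marrow, and Nkg7 in combined against G-CSF precursors (-0.12 and -0.13). Cd3e and Cd3g lost their calls on it in G-CSF (adjusted p = 0.0828 and 0.0665 with 1 added) and combined against untreated marrow (0.0748 and 0.0614), and Cd3e against ZA (0.205). Cd8a was under the minimum of 0.5 TPM and was not tested on it. With limma, 0 members were thus called lower in G-CSF or combined against untreated marrow. DESeq2 and no filter each called 7 members in G-CSF, with Prf1 (adjusted p = 0.0444 and 0.0173). In precursors against marrow DESeq2 lost Cd3e (0.0931) and no filter lost Cd8a (0.0692). The compared groups alone lost Cd3g in G-CSF (0.0641) and gave 2 (ZA), 748 (combined against untreated) and 5 genes (combined against G-CSF). Same-numbered libraries correlated at -0.04 to 0.11 in their deviations from group means. In groups of 2 libraries these deviations mirror each other, so this check cannot settle whether the numbers pair the samples. With a replicate block edgeR called 5 members in G-CSF (Cd3g at 0.0731), 3 in combined against untreated (Cd3g at 0.132) and 1 in combined against ZA (Cd3e at 0.0836). It called 7 in precursors against marrow (Cd4, Nkg7 and Klrd1 lost, at 0.0662, 0.102 and 0.132). Genes called with the block were 0 (ZA), 481, 0 and 387 (combined against untreated, G-CSF and ZA), 3 (interaction) and 3298 (precursors against marrow), and Klrd1 in G-CSF turned to -0.015. With run 2 libraries, precursors against marrow gave 0 members and 0 genes called, and changes of 1.67 (Cd3d), 0.69 (Cd3e), 1.86 (Cd3g), 0.79 (Cd8a), 1.43 (Gzma), 0.35 (Nkg7), 1.95 (Ccl5) and 1.41 (Prf1); there Csf1r goes against many labels. Causes were not tested. RLE scaling kept all 47 gene results. Counts of 0 to 9 in Cd3e and Cd8a of marrow given G-CSF limit their folds, as do 2 or 3 libraries in each group.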
